A study of Mus musculus with 3 samples.

Results

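The array carried 4607 regions that are named only by genomic coordinates and a letter, F or R, and the 1573 of them (34.1%) with 4 or more distinct probes are described here. They were chosen by name and by number of probes, with no measured value used. Together they held 8994 of the 16181 probes for such regions (55.6%), out of 55681 probes on the array that were not controls. Most of them, 973 regions, had 5 probes, 199 had 4, 73 had 6, 71 had 7, 62 had 8, 48 had 9 and 147 had 10, the highest number found. The letter F was carried by 791 regions with 4566 probes and the letter R by 782 regions with 4428 probes. Their coordinates refer to the mouse build mm9, per the file headers. They were between 5026 and 508120 bp long with a median of 19051 bp, and they lay on every autosome and on chromosome X, from 28 regions on chromosome 19 to 116 on chromosome 4.

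The J1 line is made of mouse embryonic stem cells (mESCs) of the 129S4/SvJae strain, and PD0325901 (PD) inhibits the kinase MEK, which activates ERK. All 3 samples were total RNA of J1 mESCs kept on gelatin without feeder cells and exposed to 1 µM PD for 24 h, in medium that held 1000 U/mL of the cytokine LIF (leukemia inhibitory factor). They formed 1 group of 3 replicates, each hybridised to its own Agilent array in 1 colour, and J1 is 1 line, so nothing here extends to other lines. Cells without PD were not analysed here, and no effect of PD was tested. Per the methods of the study, the RNA samples came from 3 independent experiments, so the spread between replicates covers culture, treatment and array together.

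Much of the mammalian genome outside protein-coding genes is transcribed, and long intergenic noncoding RNAs (lincRNAs) are spliced, polyadenylated transcripts from such stretches. They are mostly less abundant than messenger RNAs and more restricted to single cell types, and several act in the nucleus on chromatin or on RNA processing. In mESCs some lincRNAs are known to take part in the circuitry of pluripotency. An array sees such a region through short probes placed at several points, so a region with many probes shows whether its points gave signal together. The files name no transcript or gene for these regions, do not place the probes within them and do not define the letters. Whether the regions are intergenic was therefore not checked, and F and R are used only as parts of names.

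A probe was called detected on an array when the scanner software flagged its spot well above background. Of the 8994 probes of these regions, 4244 (47.2%) were detected on all 3 arrays, against 60.3% of all probes that were not controls and 66.0% of probes with other names. The share was 45.1% in coordinate-named regions with under 4 probes, close to that of the regions described here. A further 3679 probes (40.9%) were detected on no array and 1071 (11.9%) on 1 or 2 arrays. On the single arrays 55.0%, 51.5% and 51.6% of the probes were detected on replicates 1, 2 and 3. In a bulk RNA sample, fewer cells that make a transcript and less of it per cell cannot be told apart.

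Genes of known expression on the same arrays gave a scale for these shares. All 8 mESC markers looked for were detected, among them Pou5f1 and Nanog, core transcription factors of pluripotency, and all 6 housekeeping genes. Of 6 fibroblast markers 2 were detected, Col1a1 and Thy1, while Col3a1, Col5a2, Lum and Postn were not detected on all arrays. Of the 177 probes for Vmn1r genes, pheromone receptors of the vomeronasal organ taken as a silent reference, 23 (13.0%) were detected. The share in the coordinate-named regions with 4 or more probes thus lay between that of the Vmn1r probes and that of the other probes.

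Most regions were detected in part. Every probe was detected on all 3 arrays in 230 regions (14.6%), against 17.6% of all 1663 targets with 4 or more probes. That background is mostly made of these same regions, and among the 90 other targets with 4 or more probes the share was 70%. Some but not all probes were detected in 1108 regions (70.4%). No probe was detected on all 3 arrays in 235 regions (14.9%), beside 14.5% of all targets, and in 107 of these (6.80%) no probe was detected on any array. At the limit of 4 probes, all probes were detected in 26.6% of the regions with 4 probes and in 23.7% of those with 3, just outside the limit, and none in 15.1% and 34.1%.

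The number of detected probes was spread over the whole range. Among the 973 regions with 5 probes, 182 had no probe detected on all 3 arrays, 217 had 1, 189 had 2, 125 had 3, 122 had 4 and 138 had all 5. Among the 147 regions with 10 probes the median was 5 detected, 4 regions had none, 13 had all 10, and 130 had between 1 and 9. Probes of 1 region nevertheless went together: beside a detected probe, 62.4% of the other probes of its region were detected, and beside a probe that was not detected, 34.8%. Probes of overlapping regions may share a transcript, and 88 regions (5.59%) overlapped another of the same letter.

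**Figure D1:**
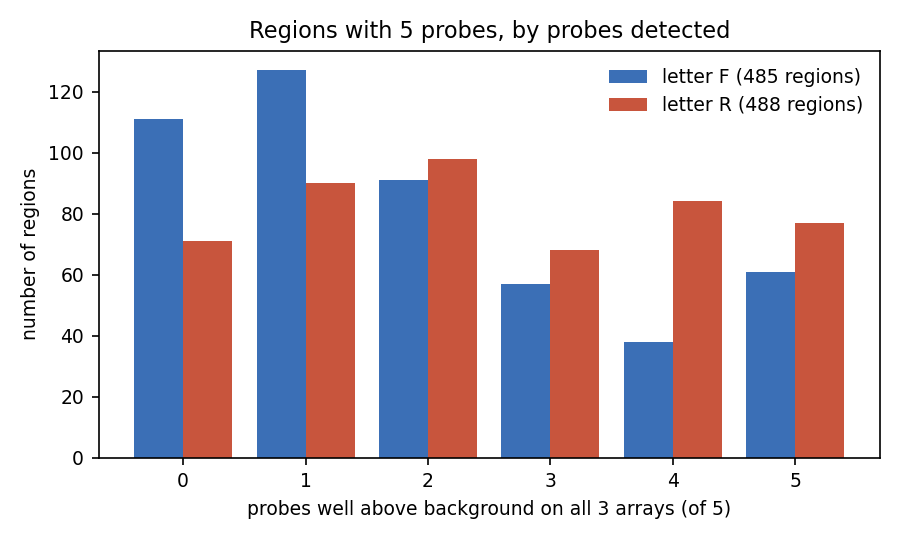
Number of regions (vertical axis) with 0 to 5 of their 5 probes well above background on all 3 arrays (horizontal axis), for 485 regions lettered F and 488 lettered R. The F bars peak at 1 detected probe with 127 regions, and at 4 detected probes the R bar stands at 84 regions and the F bar at 38.

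Length and chromosome were read next. With the regions split by length into 4 parts of like number, detection was 46.3% in the shortest part, 49.0% and 48.2% in the middle parts and 45.5% in the longest, so it did not go in 1 direction with length. Between chromosomes it ran from 36.8% on chromosome 9 to 59.1% on chromosome 19, the chromosome with the fewest of these regions. On chromosome X it was 44.8%.

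The letter in the name went with detection. Of the probes of F regions 42.0% were detected on all 3 arrays, and of the probes of R regions 52.6%, a difference of 10.6 percentage points. On the single arrays the difference was 12.5, 10.7 and 11.1 points for replicates 1, 2 and 3, with an SD over arrays of 0.973 points. The R share was higher on 19 of 20 chromosomes, with chromosome 17 as the exception at -4.56 points. All probes were detected in 129 R regions (16.5%) and 101 F regions (12.8%), and none on all 3 arrays in 97 R regions (12.4%) and 138 F regions (17.4%). The detected probes themselves were about as bright, with a median level of -2.90 for F and -3.06 for R on the scale explained with the levels.

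The difference was seen where regions had 5 or more probes. There 40.8% of F probes and 52.2% of R probes were detected. With 4 probes per region the shares were 54.7% for F and 55.6% for R. In the regions with under 4 probes, which are outside the set, the order was turned, with 46.2% for F and 44.0% for R. Among intervals with members of both letters the difference was 10.9 points, and among those with a member of 1 letter only it was 9.17 points. These shares are a description of the probes of 3 arrays. What the letters stand for and how probes were chosen for each were not given in the sources used here, and their part in the difference was not tested.

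**Figure D2:**
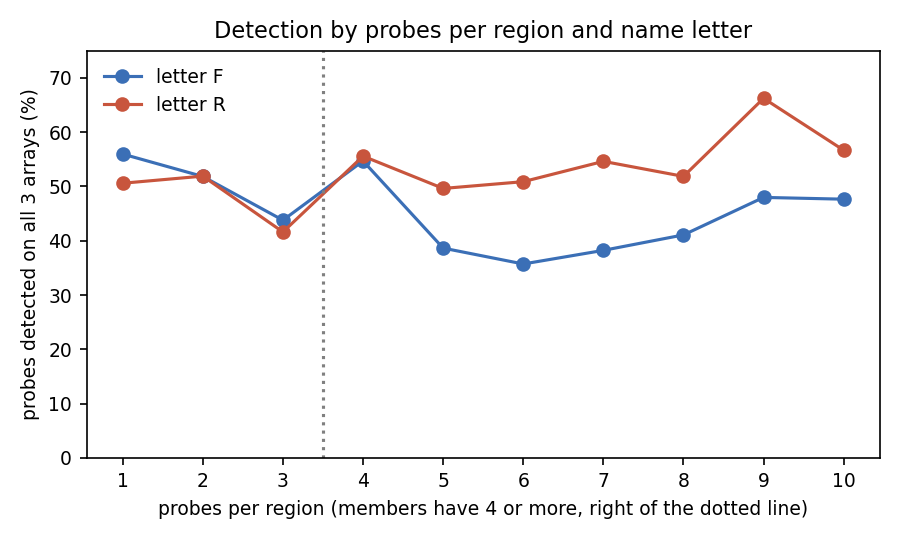
Share of probes detected on all 3 arrays (vertical axis, percent) for regions with 1 to 10 probes (horizontal axis), by the letter in the region's name; the dotted line marks the limit of 4 probes. The R points lie above the F points at every number from 5 upward, by 9.01 points at 10 probes and 18.3 points at 9, and the letters lie within 0.895 points of each other at 4 probes.

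The 1573 regions covered 952 intervals, of which 621 held such regions of both letters and 331 of 1 letter. Whether those 331 were also probed under the other letter, with under 4 probes, was not counted. Between the letters of an interval the detected shares had a median difference of 29.2 percentage points. In 173 of the 621 intervals (27.9%) they were over 50 points apart. How far apart the shares of regions from different intervals lie was not measured. The R share was higher in 335 intervals, the F share in 202, and they were equal in 84. All probes of both letters were detected in 12 intervals and none of either in 19. All probes of 1 letter and none of the other were detected on all 3 arrays in 19 intervals, 13 of them detected for R and 6 for F. With the stricter demand that the other letter be detected on no array at all, 9 intervals remained in that count.

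The number of probes detected under F said little about the number under R. In the 327 intervals with 5 probes of each letter, the mean number of R probes detected was 2.18 where no F probe was detected (85 intervals), 2.38 at 1 F probe, 2.40 at 2, 2.89 at 3, 2.46 at 4 and 2.17 where all 5 F probes were detected (30 intervals). The mean was thus nearly the same at both ends of the range.

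**Figure D3:**
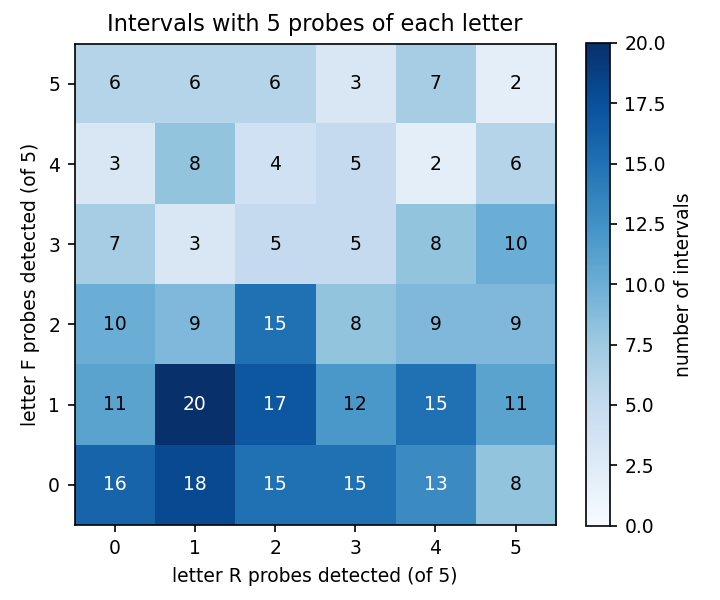
Number of intervals (colour and figure in each cell) by how many probes were detected under R (horizontal axis, of 5) and under F (vertical axis, of 5), for 327 intervals with 5 probes of each letter. The intervals spread over the whole square without a diagonal, and the cell with 1 probe of each letter holds the most intervals, 20.

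The level of a probe is given as the log2 of its processed signal minus the 75th percentile of the array, so that 0 marks the 75th percentile, and the level of a region is the median over its probes. Levels also depend on the sequence of a probe and were not tested between probes. Among intervals detected under 1 letter only, the brightest was chrX:135880775-135891525. Its 6 R probes were all detected, with a region level of -0.30, -0.26 and -0.31 on replicates 1, 2 and 3 and median signals of 450, 430 and 429. Of its 6 F probes none was detected on all 3 arrays and 3 on none, with median signals of 10.1, 5.05 and 4.51. The region levels of the letters were well apart on every array, although single probes were not: on replicate 2 the highest F probe, at -3.99, was above the lowest R probe, at -4.35.

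At chr17:17462450-17488725 the letters stood the other way. The 5 F probes were all detected with median signals of 454, 386 and 369, and the 5 R probes were detected on no array, at median signals of 4.24, 2.38 and 2.36. At chr15:68161768-68193518 and chr16:4585697-4594022 all 5 R probes were detected, with mean region levels of -1.86 ± 0.12 and -1.89 ± 0.08 (SD, n = 3), and all 5 F probes of each were detected on no array. At chr12:117623500-117643575 the 5 R probes were detected at region levels of -0.51, -1.28 and -0.44, so replicate 2 was the lowest, and 3 of these 5 probes lay in blocks of the array with many non-uniform spots on replicate 2. Of its 4 F probes none was detected on all 3 arrays.

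The brightest regions came from 1 interval under both letters, chr17:39960567-39992817. By general knowledge of the mouse map and not by the files, this interval holds a copy of the 45S ribosomal RNA precursor, the transcript from which most ribosomal RNA is cut. Its 4 F probes had a region level of 5.40, 5.04 and 5.33 on replicates 1, 2 and 3 (mean 5.25 ± 0.19, SD, n = 3). Its 5 R probes had 5.16, 5.03 and 5.29 (mean 5.16 ± 0.13). On every array both letters were above the other 8 of the 10 brightest regions, and the median signals lay between 16684 and 24120.

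The next regions were single letters of their intervals among the 10 brightest. The level was 4.29 ± 0.03 at chr9:14460976-14488051 F, 4.17 ± 0.08 at chr4:136856064-136877219 R, 3.53 ± 0.04 at chr10:83181374-83249774 F and 3.36 ± 0.01 at chr6:11996975-12037300 F (SD, n = 3 each). Below them stood chr13:66381200-66410200 R at 3.12 ± 0.07, chr8:119090566-119097735 R at 2.66 ± 0.06, chr4:146017200-146029700 F at 2.44 ± 0.08 and chr13:58474388-58487288 R at 2.40 ± 0.01. This order rests on different probes and was not tested. The SD over arrays was far below the distance between probes of 1 region, which was 7.27 log2 units in the chromosome 6 region, where 1 probe stood at -3.55 and the highest at 3.72.

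**Figure D4:**
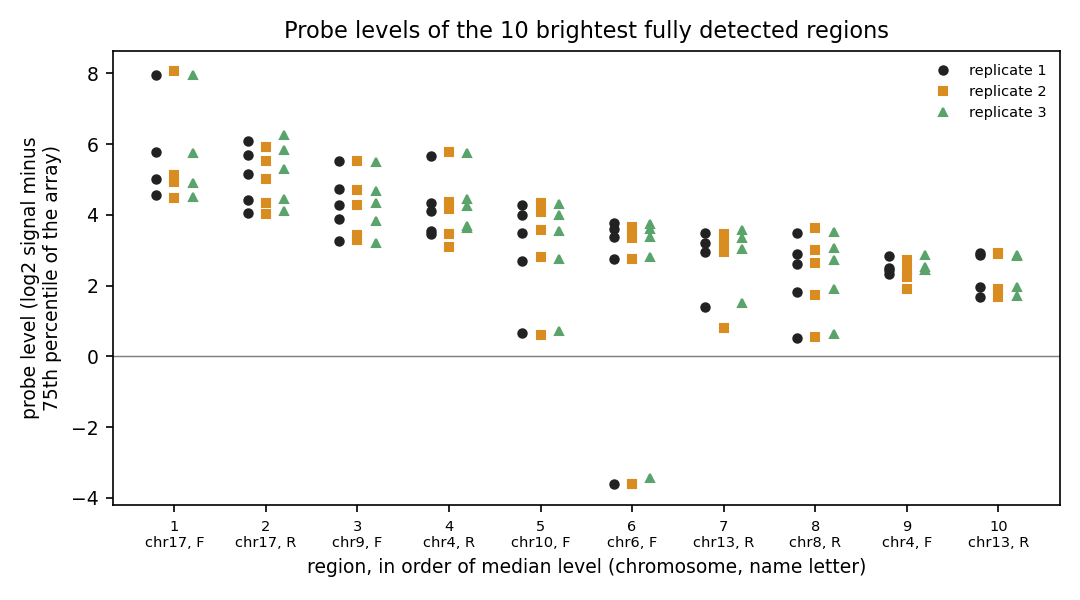
Level of every probe (vertical axis, log2 signal minus the 75th percentile of the array) in the 10 brightest regions with all probes detected, in order of region level (horizontal axis), with 1 symbol per array. The symbols of the 3 arrays lie almost side by side for most probes, while the probes of the chromosome 6 region reach from -3.55 to 3.72.

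Other intervals were detected in full under both letters, at lower levels. At chr5:35975265-35982561 the 4 F probes had region levels of 1.48, 1.03 and 1.80 on replicates 1, 2 and 3, and the 4 R probes 1.56, 1.64 and 1.56. At chr6:116092274-116144199 the 5 F probes had 2.33, 1.93 and 2.42 and the 10 R probes -1.76, -1.78 and -1.87. The region levels of the letters were thus well apart on every array, but single probes were not. F probes at mean levels of -4.52 and -4.84 lay below every R probe, the lowest of which stood at -3.46. At chr10:117021051-117038683 F stood at 1.03 ± 0.09 and R at -2.58 ± 0.21, and at chr5:34696192-34722842 F stood at -0.03 ± 0.05 and R at -3.10 ± 0.25 (SD, n = 3 each). The level of -0.03 falls in a gap between F probes at 2.23 and -2.30, so no probe stood near it. In all 3 of these last intervals the F region level was the higher one, on every array, while the probes of the letters overlapped. At chr10:117021051-117038683 the highest R probe, at 1.24, stood above the lowest F probe, at 0.54. At chr5:34696192-34722842 the highest R probe, at 3.18, stood above the F probe at 2.23.

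The 5 regions with the most probes, taken by name order among the 147 with 10, showed how mixed a region could be. At chr10:120116843-120182671 R and chr10:5950116-5958250 F 1 of 10 probes was detected on all 3 arrays and 8 were detected on none. At chr10:60473030-60535340 F 4 of 10 were detected. At chr10:126818382-126856582 the F region had 6 of 10 detected and a mean level of -1.60 ± 0.11, and the R region 4 of 10 and -5.27 ± 0.32 (SD, n = 3 each). The F probes of that interval reached from -7.58 to 2.86, over most of the range of the array.

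Probes of fully detected regions also differed widely. The distance between the highest and the lowest probe of a region had a median of 2.66 log2 units over the 230 regions, from 0.416 to 12.2, and in 212 of them (92.2%) it was over 1 unit. At chr6:116092274-116144199 F the 5 probes had mean levels of 7.39, 4.79, 2.23, -4.52 and -4.84. At chr12:73838608-73862621 F 1 probe had signals of 86200, 92555 and 90252 on replicates 1, 2 and 3, and the other 4 probes had signals between 14.2 and 119 where measured. In that region 1 probe, not the region as a whole, was bright.

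The same form, 1 bright probe above a dim remainder, was seen in other regions of wide spread. At chr4:123572090-123581365 R the highest of 4 probes had a mean level of 4.26 and the next -3.79. At chr5:34696192-34722842 R the highest of 5 stood at 3.18 and the next at -2.05. At chr19:16078625-16110246 R the 4 probes were more evenly apart, at 3.87, 0.68, -1.43 and -4.61. These profiles repeated between arrays: among 229 fully detected regions with no outlier spot, the brightest probe was the same on all 3 arrays in 196 (85.6%), and the whole order of the probes in 99 (43.2%).

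Detected probes of these regions were dim. Their median level was -2.98, against -0.91 over all detected probes of the array and -0.07 over detected probes with other names. In coordinate-named regions with under 4 probes it was -2.96, so the low level was shared with those regions. Of the detected probes described here 607 of 4226 (14.4%) lay above 0, against 41.5% of all detected probes and 13.4% in regions with under 4 probes. Of 4 equal parts of all detected probes by level, the dimmest held 46.3% of the probes of these regions and the brightest 5.54%. The 230 fully detected regions had a median region level of -2.25, from -5.06 to 5.25, with 52 of them above 0.

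The spread between arrays went with the level. The median SD of a detected probe over the 3 arrays was 0.134 log2 units, against 0.0902 over all detected probes and 0.133 in coordinate-named regions with under 4 probes. Within the dimmest of the 4 parts it was 0.196 for probes of these regions and 0.187 for all probes, and within the brightest 0.0678 and 0.0579. In the 2nd and 3rd parts from the dimmest it was 0.115 and 0.0817 for probes of these regions, and 0.106 and 0.0708 for all probes. At like level the probes of these regions thus varied slightly more than all probes, which include them. This difference was not tested. For a fully detected region the SD of its region level had a median of 0.101.

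Single probes stood apart on 1 array. The levels of 127 of 4226 detected probes (3.01%) spanned more than 1 log2 unit, against 1.85% of all detected probes. In coordinate-named regions with under 4 probes the share was 2.60%. The 127 probes lay in 122 regions, 117 of which held 1 such probe and 5 held 2. Whether the other probes of those regions moved the same way by less was not counted. Replicate 2 was the farthest from the other arrays in 73 of the 127, and higher than both in 57 of these 73. With replicates 1, 2 and 3 left out in turn, 86 of 4261, 48 of 4485 and 95 of 4365 detected probes spanned more than 1 unit. Leaving out any array can only narrow the span of a probe, but it also admits probes not detected on that array. Replicate 2 had 187 spots flagged non-uniform, against 25 and 8 on replicates 1 and 3, and 148 of the 187 lay in 6 of 48 blocks of the array. Those 6 blocks held 46 of the 127 probes (36.2%) and 12.5% of the detected probes of the regions. Without the blocks, and with the minimum of 4 probes applied again, 74 of 3395 detected probes spanned more than 1 unit. The 95th percentile of the negative control spots was 12.7 on replicate 2 and 2.74 and 2.82 on replicates 1 and 3.

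The widest was a probe of chr1:162965309-162970704 R with signals of 16.1, 297 and 18.6 on replicates 1, 2 and 3. It lay in a marked block, and the highest SD among the other 8 detected probes of its region was 0.437, against 2.41 for this probe. Probes of chr4:116790373-116797823 R, chr5:33773842-33942967 F and chr1:42689799-42749799 R likewise had their highest signal on replicate 2, at 100.1, 95.5 and 101, and signals between 14.2 and 19.4 on the other arrays. At chr1:175705225-175717250 R replicate 1 was the high one, with signals of 210, 21.9 and 35.3. That probe was the only one of 5 detected in its region.

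Regions whose probes moved together between arrays were looked for with a moderated F test (limma) that takes the probes of a region as repeated measures. It compares these 3 hybridised samples and no condition. The array means differed in 22 of 743 testable regions (2.96%) at an adjusted p under 0.05, against 28 of all 811 testable targets (3.45%), which include these regions, and 6 of the 68 other targets (8.82%). The difference between these shares was not tested. An unadjusted p under 0.05 was found for 118 of the 743 regions (15.9%), and was not counted for the other targets. The difference between the highest and the lowest array of the 22 was small, from 0.11 to 0.89 log2 units with a median of 0.37. Replicate 1 was the highest in 15 of the 22 and replicate 2 the lowest in 16. With only 2 arrays compared, 0, 3 and 2 regions were called without replicates 1, 2 and 3. A fit to 2 arrays rests on fewer values, so a lost call cannot be told from lost power.

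The region chr19:38392796-38398771 R showed the form of such a difference. Its 5 detected probes averaged -1.51, -2.21 and -1.72 on replicates 1, 2 and 3, a difference of 0.70 ± 0.07 (SE of the difference; limma, adjusted p = 0.000367). Each of the 5 probes was highest on replicate 1 and lowest on replicate 2, and none lay in a marked block. At chr9:39982939-39992189 F the 4 detected probes averaged -3.28, -4.17 and -3.78, with the same order in each probe, a difference of 0.89 ± 0.11 (limma, adjusted p = 0.00658). Without replicate 3 the difference was the same, 0.89, but the region was no longer called.

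At chr5:35975265-35982561 F the 4 probes averaged 1.77, 1.43 and 2.07, with replicate 3 the highest in each, a difference of 0.64 ± 0.07 (limma, adjusted p = 0.00366). The R probes of this interval differed by 0.13 ± 0.04 and were not called (limma, adjusted p = 0.279). Without replicate 1 the F region had the same difference, 0.64, but was not called. At chr16:90008636-90015586 R the 5 probes averaged -3.35, -3.91 and -3.81, and replicate 1 was the highest in each (limma, adjusted p = 0.0170). Its difference was 0.56, and stayed so without replicate 3 and with no filter on dim probes, but it was called in neither setting.

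At chr12:110870903-110891628 R 3 of 6 probes were detected and averaged -1.97, -2.63 and -1.90 (limma, adjusted p = 0.0170). By general knowledge of the map and not by the files, this interval is in the imprinted Dlk1-Dio3 domain, whose noncoding RNAs are maternally expressed. Of its 6 probes 3 lay in marked blocks, 2 of them among the detected ones, and with all 6 probes in the fit the difference fell to 0.06 and was not called. Without replicate 1 the difference was 0.73, as with all 3 arrays, and the region was not called either. At chr2:155269145-155303251 and chr8:72663625-72673010 the regions of both letters were called.

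**Figure D5:**
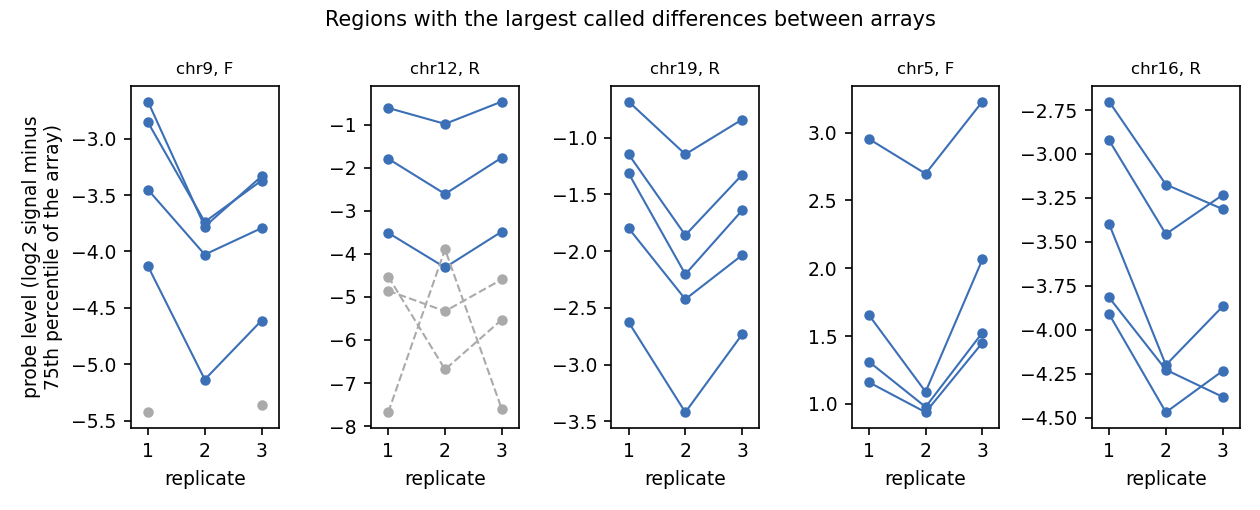
Level of each probe (vertical axes, log2 signal minus the 75th percentile of the array, scaled to each panel) on the 3 arrays (horizontal axis) in the 5 called regions with the largest difference between arrays. Lines join the values of 1 probe, with detected probes in blue and others in grey, and the blue probes of a region mostly move in parallel, while of the 3 grey probes of the chromosome 12 region 1 is highest on replicate 2, at -3.90, where the others are lowest.

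Named long noncoding RNAs with 4 or 5 probes on the same array gave a reference of known identity. Of 11 such targets, all probes of 5 were detected on all 3 arrays, none of 2, and 30 of 54 probes in all (55.6%). Detected in full were NEAT1, the scaffold of paraspeckles, with a level of 1.71, 1.59 and 1.57 on replicates 1, 2 and 3, TUG1 with 1.59, 1.65 and 1.64, and Norad, which binds Pumilio proteins, with 0.30, 0.34 and 0.31. TSIX, the antisense partner of XIST that is made in undifferentiated mESCs, was also detected in full at -1.31, -1.30 and -1.37, while none of 5 probes was detected for XIST, which coats the inactive X chromosome. H19, an imprinted RNA, was detected by all 5 probes at -2.60, -3.19 and -2.30, and its array means differed (limma, adjusted p = 0.0375).

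The other named targets were detected in part or not at all. KCNQ1ot1, which silences an imprinted cluster, and NRON had 2 of 5 probes detected, HOTAIR and PINC had 1 of 5, and lincP21 had none. At KCNQ1ot1 the probe levels reached from -7.00 to 2.59. A share of detected probes between none and all was found for 4 of these 11 transcripts. That is a smaller part than the 1108 of 1573 coordinate-named regions (70.4%), and the difference was not tested. Of 17 long noncoding RNA genes on the array from a list of 25, each taken by its brightest probe, 14 were detected, among them Meg3 of the Dlk1-Dio3 domain at 4.57 ± 0.02 (SD, n = 3), and Xist, Tunar and Firre were not.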

How the data were processed

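Per the labels, total RNA was amplified and labelled with Cy3 by a low-input 1-colour kit, and the scans were read with Agilent Feature Extraction 10.7 (10.7.3.1 in the file headers). The deposited spot intensities are processed signals, background-subtracted and detrended within each array and not normalized between arrays. The authors also deposited a table of log2 values whose normalization is not given in the sources used here. Flags per spot were deposited with the intensities.

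Members were non-control probes named by coordinates and a letter, in regions with 4 or more distinct probes. Members and lists were chosen with earlier results of these data known. Regions were named by fixed rules of probe number, level, letter, spread and array difference, up to 5 or 10 of each, with none of chromosome 18. Each member probe had 1 spot per array. Spots with outlier flags were left out of levels. No spot was saturated. Levels are log2 of the processed signal minus the 75th percentile over non-control probes, at signals of 551, 511 and 527 on replicates 1, 2 and 3. The lowest signals well above background were 10.1, 11.4 and 10.3. The number of arrays limits the precision.

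Array effects were tested with probe as a block by limma 3.58.1 in R 4.3.3 (variance prior with trend on level), over targets with 4 or more probes of which 3 or more were detected, with Benjamini-Hochberg adjustment at 0.05. On data simulated for 811 targets, the test called 39% of 100 targets changed by 0.3 log2 units, 92% of 100 changed by 0.6, and 6 of 611 unchanged ones. All changes were set on replicate 2, and the noise was normal and independent between probes, without outlier probes or block effects. The share of changed targets was also far above the share called in the data. These rates may therefore be better than those in the data. Blocks of the 8 by 6 array grid with 10 or more non-uniform spots on replicate 2 were marked. The detection rule, probe minimum, scaling, background (normexp, offset 50), filter, blocks and arrays used were varied. Of the non-control probes 27235 were matched to a RefSeq symbol of GRCm38.p6, by accession, and no coordinate of that build was used.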

Additional observations from a re-analysis of the deposited data

How the results depend on the processing

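With the looser positive-and-significant flag, 67.2% of the probes were detected, 455 regions were detected in full, 3 on no array, and 11 intervals in full under 1 letter and not at all under the other. With detection set at the 95th percentile of the negative controls, these were 51.0% and 8 regions on no array, and R exceeded F by 11.6 points. With regions of 3 probes included, 45.5% of the probes were detected, 658 regions in full, 485 on no array and 1872 in part, R exceeded F by 5.74 points, and 40 regions had array means that differed. Leaving out 1 array in turn gave 47.6% to 49.9% detected, 48 to 95 probes spanning over 1 log2 unit, and 0 to 3 regions whose array means differed. With no detected probe allowed on any array for the other letter, 9 intervals were detected under 1 letter, and with 1 exception allowed for each letter 94 (both chosen after seeing the data, as was the R minus F comparison across settings). With normexp, the median SD was 0.0730 and 15 probes spanned over 1 unit. With no filter on dim probes, 1516 of 8952 probes did and 8 of 1573 tested regions were called. Scaled to the median of the array, 34 regions were called, 18 of them among the 22 reported. Without the marked blocks 74 probes spanned over 1 unit, 21 regions were called, 14 of them among the 22, and R exceeded F by 11.6 points. Under quantile normalization, normexp, the deposited table and the prior without trend, 21, 20, 24 and 18 regions were called. For the 5 regions named by their array difference, all 52 alternative values kept the direction and 46 stayed called. These 5 were picked for large called differences in the same data. Settings that left out a region, or its highest or lowest array, gave no value among the 52, so they are no independent check. No paired analysis was possible because the 3 replicates form a single group. A dim probe not detected here may still have a transcript under the lowest signals well above background.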
